A study of Saccharomyces cerevisiae with 4 samples.

Results

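This account covers 45 of the 6063 genes read on the 4 yeast whole-genome arrays of the study: 44 enzymes that make arginine, histidine, lysine, the aromatic amino acids, serine, threonine, isoleucine and proline, and GCN4, which encodes a transcriptional activator of such genes. The genes were taken by their ORF names under a rule that uses no measured value, but they were chosen with earlier results of these data known. All 45 were read on array 1 of E3, 44 on array 2 of E3, 41 on array 1 of E4 and 44 on array 2 of E4. ARO3 was read on 1 array only, and ARG56 (named ARG5,6 in older lists), LYS2 and LYS5 were missing from array 1 of E4, so 44 genes could be tested in E3 and 41 in E4.

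Every culture was the haploid yeast strain DY1457, of mating type alpha, which carries his3 and trp1 mutations, with ade6, can1, leu2 and ura3. HIS3 and TRP1 are therefore mutant alleles in all cultures compared here, and CAN1 encodes the arginine permease. In E3, cells with the plasmid pYef2-Zap1TC, in which the GAL1 promoter drives a constitutive allele of the zinc-responsive activator Zap1, were compared with cells bearing empty pYef2. Both cultures grew in SD galactose medium with 1 μM added ZnCl2, which is zinc-replete. In E4, wild-type cells in LZM, a medium that buffers zinc with EDTA and citrate, were compared at 3 μM and at 3 mM ZnCl2. Cy5 marked the test culture and Cy3 its reference on all 4 arrays, and each experiment used 2 pairs of independent cultures, so dye and condition cannot be told apart within E3 or E4. Values below are log2 ratios of test over reference after background correction and loess within each array, in which the middle of all genes on an array is near 0. They are relative to the other mRNAs of the culture. Where a pair of values is given, array 1 comes before array 2.

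Yeast makes all of its amino acids when the medium does not supply them, and many of the genes for these pathways share a common control. When an amino acid runs short, the kinase Gcn2 slows translation in general while translation of the GCN4 mRNA increases, and the Gcn4 protein then activates enzymes of many pathways at once, which is called general amino acid control. Individual pathways add their own regulators, such as the ArgR proteins with Mcm1 for arginine, Lys14 for lysine and Aro80 for aromatic amino acid breakdown. Because Gcn4 is controlled mainly at translation, its mRNA level is an incomplete measure of its activity.

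Most of these genes were lower in cells expressing Zap1TC, whereas in severe zinc limitation more were called higher than lower. In cells expressing Zap1TC, 26 of 44 genes fell and 4 rose (limma, adjusted p under 0.05), whereas 29.4% of all 5780 genes tested fell and 29.4% rose. Their median log2 ratio was −0.28, against 0.00099 for all genes, and 34 of 44 had a mean below 0, where 2883 of all 5780 genes did. In severe zinc limitation, 16 of 41 genes (39%) rose and 7 (17.1%) fell, with 25.9% of all 5129 genes higher and 25% lower. The count of falls depended on the setting. It was 12 with the arrays of E4 alone, where 1377 of 5129 genes fell. With plain subtraction of the background it was 3, where 980 of 5104 genes fell. It also moved when array 1 of E4 was left out. The median was 0.0069, against −0.00066 for all genes. The study's own rule asks for a change of 1.5-fold or more in the mean and 1.4-fold or more on every array. It was passed by 11 genes downward and 1 upward in E3, where 5.35% of all genes passed downward and 7.01% upward. It was passed by 8 genes upward and 1 downward in E4, with 4.64% and 1.93% of all genes. A call by limma with a change of 1.4-fold or more on both arrays, which chose the genes described in most detail, was reached by 12 genes downward and 1 upward in E3 (6.42% and 8.2% of all genes) and by 10 upward and 2 downward in E4 (5.42% and 2.71%). The members were brighter than most genes, with a median log2 intensity over both channels of 8.67 against 7.30 for all genes on array 1 of E3, and the part of brightness in these counts was not tested.

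**Figure D1:**
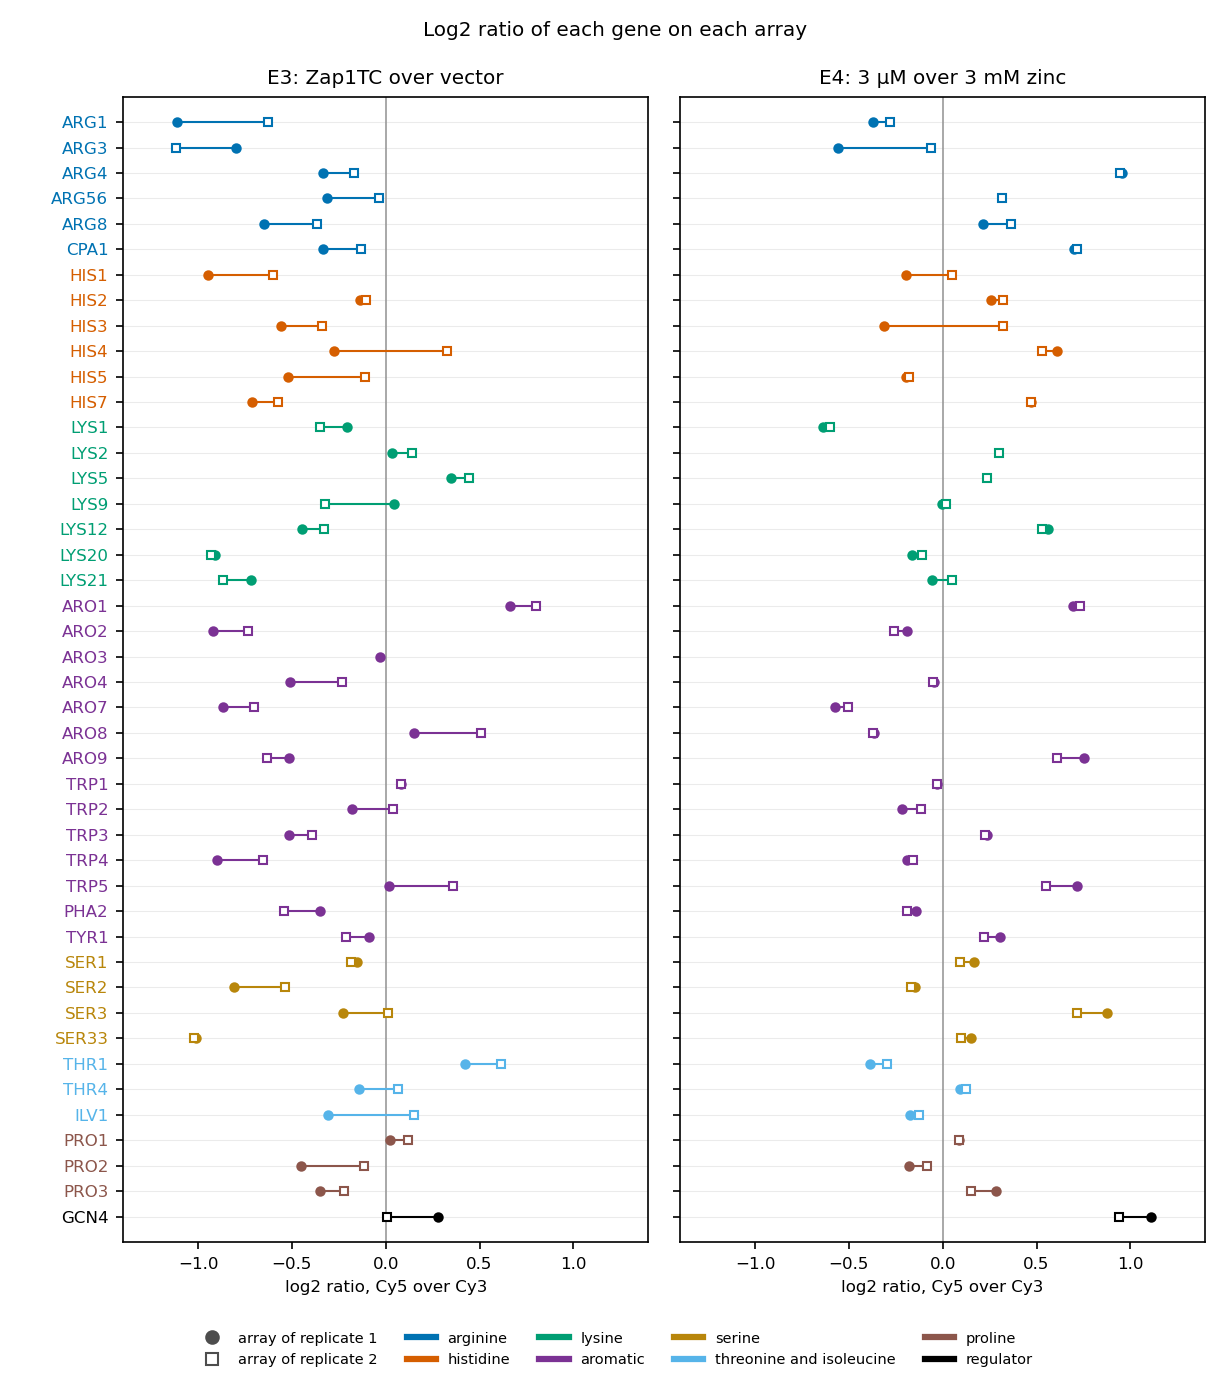
Log2 ratio of test over reference (x axis) of 44 of the 45 genes (y axis, grouped and coloured by pathway) on each array, E3 at left and E4 at right; filled circles are the arrays of replicate 1, open squares those of replicate 2, and a line joins them. Of all genes tested in the set, 29 of 44 lay below 0 on both arrays in E3, and 17 of 41 in E4. By the mean, 34 of 44 lay below 0 in E3 (2883 of 5780 of all genes) and 19 of 41 in E4 (2569 of 5129).

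**Figure D2:**
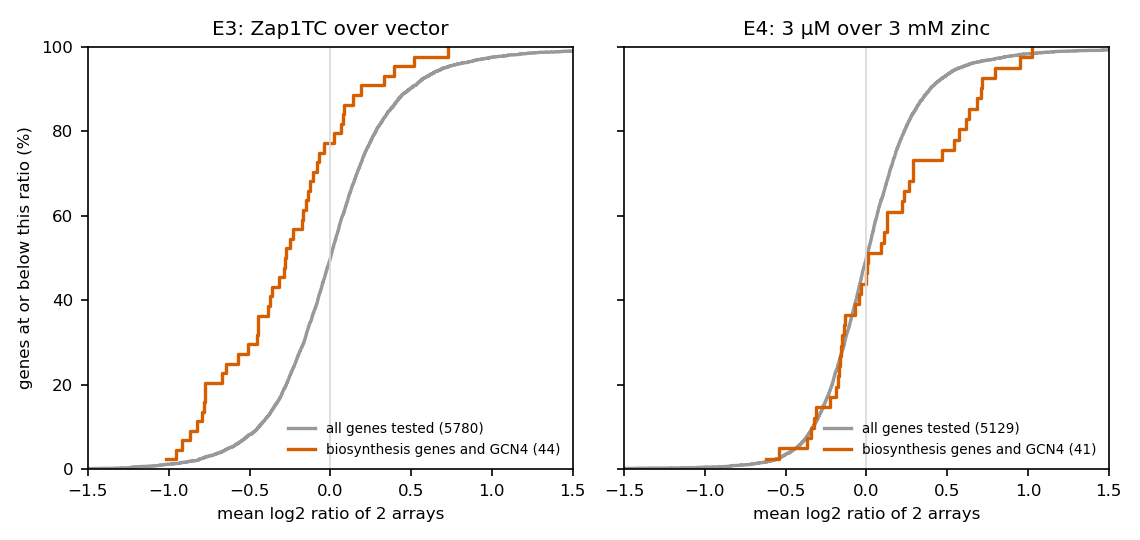
Percentage of genes (y axis) at or below a given mean log2 ratio of 2 arrays (x axis) for all genes tested (grey) and for the biosynthesis genes with GCN4 (orange), E3 at left and E4 at right. In E3 the median was −0.28 for the latter, and in E4 the medians of both sets were near 0 while the upper part of the orange curve lay to the right.

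Taking both experiments together for the 41 genes read on all arrays, 9 fell in E3 and rose in E4, among them ARG4, ARG8, CPA1, HIS7, LYS12, ARO9, TRP3 and PRO3. Of the 4992 genes read on all arrays, 5.99% had this combination. A further 12 genes fell in E3 and were not called in E4, a combination that 15.2% of all genes had. ARG1, ARG3, LYS1, ARO2 and ARO7 fell in both, as did 11.2% of all genes, and ARO8 and THR1 rose in E3 and fell in E4, as did 4.11%. ARO1 alone rose in both (11.2% of all genes), and 6 genes, among them GCN4 and SER3, rose in E4 with no call in E3 (8.91%). None of the 41 fell in E4 alone (9.56% of all genes) or rose in E3 alone (12.1%), and 6 were called in neither (21.8%).

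**Figure D3:**
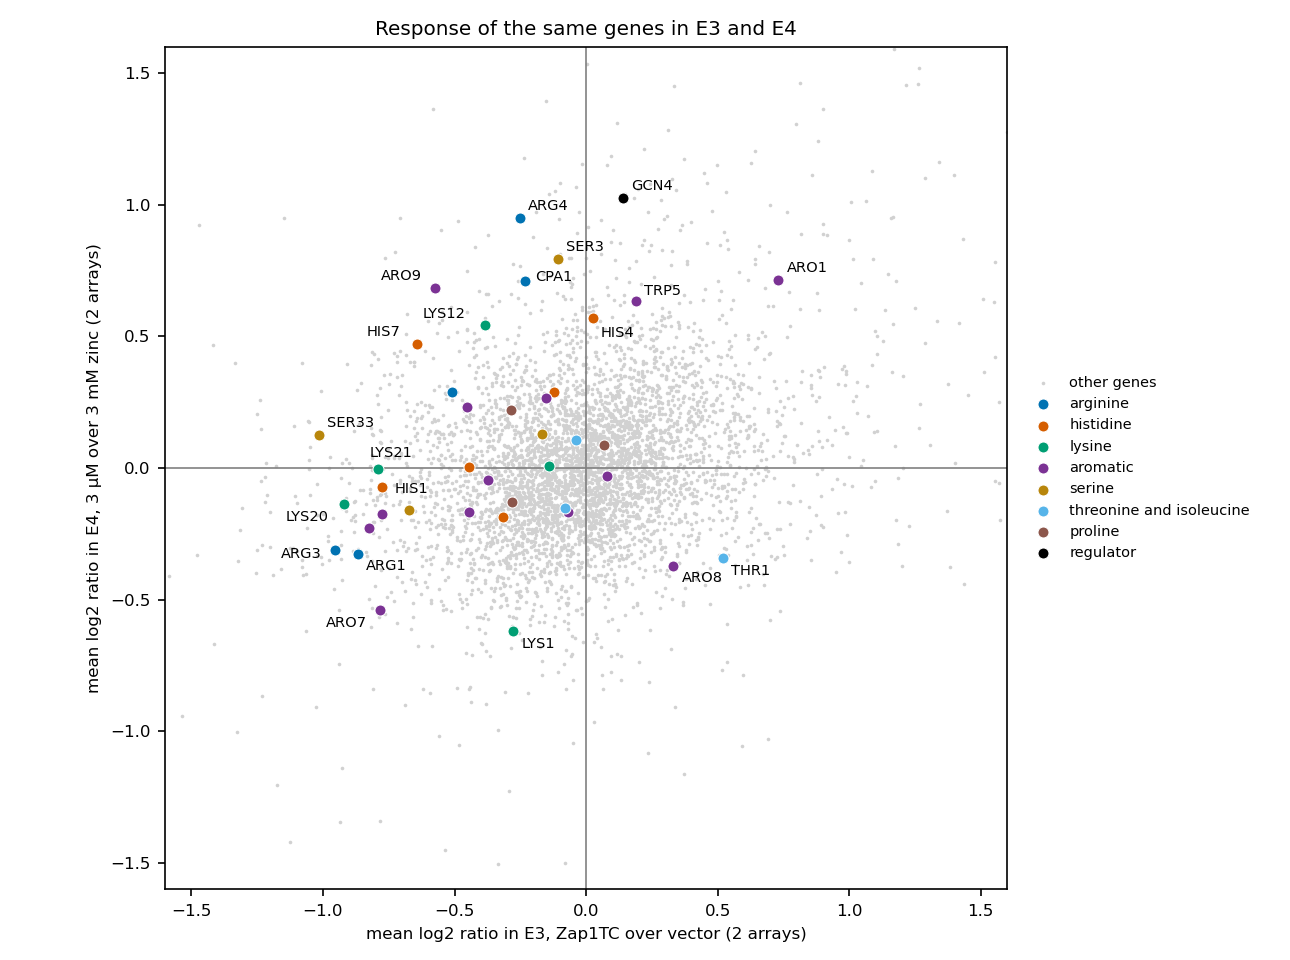
Mean log2 ratio of 2 arrays in E3 (x axis) and in E4 (y axis) for 40 of the 41 genes read on all arrays, coloured by pathway, over the other genes read on all 4 arrays (grey); 65 of 4992 genes lie outside the axes at 1.6 on either side. SER33 sits farthest left at −1.02 in E3, GCN4 highest at 1.03 in E4, and ARO1 is the only coloured point high in both.

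The difference between the experiments was tested gene by gene as the contrast E4 minus E3. It was positive for 28 of 41 genes and negative for 3 (limma, adjusted p under 0.05), where 26.8% and 21.7% of all 4992 genes were called. The median difference of the members was 0.51, against 0.023 for all genes. A dye effect of the same size on every array would drop out of this contrast, but the media also differ between E3 and E4, and medium and treatment cannot be told apart in it.

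**Figure D4:**
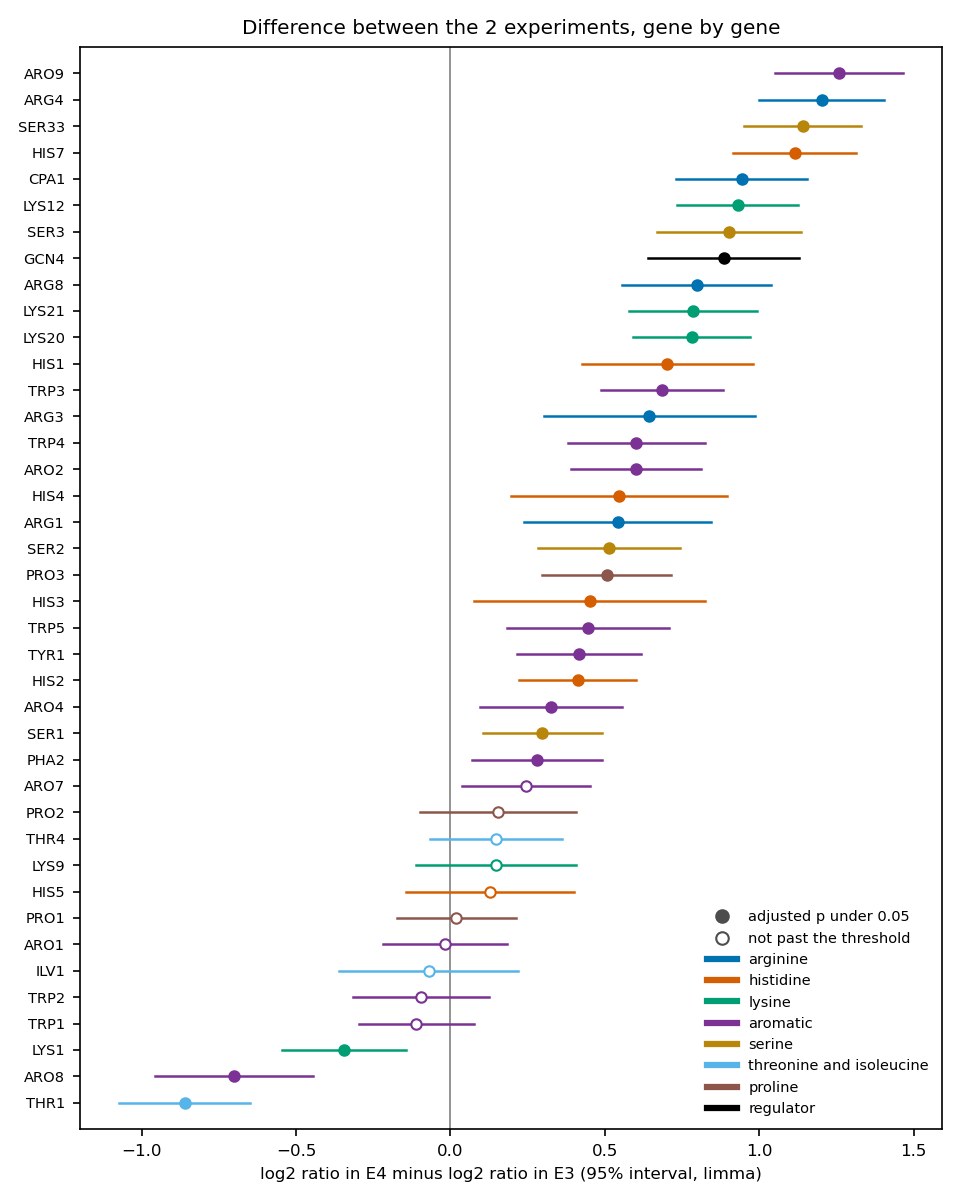
Log2 ratio in E4 minus log2 ratio in E3 (x axis) with its 95% interval from limma for 40 of the 41 genes read on all arrays (y axis, in order of the difference, coloured by pathway); filled points passed an adjusted p under 0.05. The values run from −0.86 for THR1 to 1.26 for ARO9.

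Genes for the last steps of arginine synthesis differed in direction in E4, and the difference between these genes was not tested. In E3, 6 of the 7 arginine genes fell (29.4% of all genes did), and the mean log2 ratio of each was below 0. In E4, 4 of 6 rose and 2 fell (25.9% and 25% of all genes). ARG4 (YHR018C), argininosuccinate lyase, which catalyses the final step, read −0.33 and −0.17 in E3 and 0.96 and 0.95 in E4. It was 1.19-fold lower in E3 (−0.25 ± 0.11, SD, n = 2, limma adjusted p = 0.00651) and 1.93-fold higher in E4 (0.95 ± 0.01, SD, n = 2, limma adjusted p = 1.42e-06). The arrays of the experiments did not overlap, and the difference was 1.20 (SE 0.0917, limma adjusted p = 4.85e-06). In the scanner's own intensities before correction, ARG4 on array 2 of E4 gave 585 in Cy3 and 1161 in Cy5 over local backgrounds of 104 and 85.7.

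CPA1 (YOR303W), a subunit of the carbamoyl phosphate synthetase that supplies arginine synthesis, read −0.33 and −0.13 in E3 and 0.70 and 0.72 in E4, 1.64-fold higher (0.71 ± 0.01, SD, n = 2, limma adjusted p = 1.61e-05). It was thus above 0 on both E4 arrays and below 0 on both E3 arrays, with a difference of 0.94 (limma, adjusted p = 2.72e-05). The small falls of ARG4 and CPA1 in E3 rested on array 1, since without it their adjusted p from limma was 0.125 and 0.232.

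ARG1 (YOL058W), argininosuccinate synthetase, which acts just before ARG4, and ARG3 (YJL088W), ornithine carbamoyltransferase, did not rise in E4. ARG1 read −1.11 and −0.63 in E3, 1.83-fold lower (−0.87 ± 0.34, SD, n = 2, limma adjusted p = 2.6e-05), and −0.37 and −0.28 in E4. ARG3 read −0.80 and −1.12 in E3, 1.94-fold lower (−0.96 ± 0.23, SD, n = 2, limma adjusted p = 3.09e-05), and −0.56 and −0.06 in E4. The E4 calls of both (adjusted p = 0.0168 and 0.0354, limma) were lost without array 1 of E4, at adjusted p = 0.0592 and 0.694. The E4 value of ARG1 was −0.13 with print-tip loess (limma, adjusted p = 0.366) and −0.26 with median centring (limma, adjusted p = 0.0559), so its fall in E4 also depended on the normalization. For ARG3, the E4 call was also lost with variances moderated along an intensity trend (limma, adjusted p = 0.0895). ARG8 (YOL140W), acetylornithine aminotransferase, read −0.65 and −0.37 in E3 and 0.21 and 0.36 in E4, so it was called in opposite directions. ARG56 (YER069W), which encodes the enzymes of the acetylglutamate kinase and reductase steps, read −0.31 and −0.04 in E3 (limma, adjusted p = 0.0776) and 0.31 on its only E4 array.

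Of the 6 histidine genes, 4 fell and none rose in E3, where 29.4% of all genes went each way, and HIS4 and HIS2 were not called. In E4, 3 rose and none fell, against 25.9% and 25% of all genes. HIS1 (YER055C), ATP phosphoribosyltransferase, which begins the pathway, read −0.95 and −0.60 in E3, a 1.71-fold fall (−0.77 ± 0.24, SD, n = 2, limma adjusted p = 3.09e-05), and −0.19 and 0.05 in E4, which was not called (limma, adjusted p = 0.519). HIS7 (YBR248C), the glutamine amidotransferase and cyclase, read −0.71 and −0.57 in E3 and 0.47 on both arrays of E4. It was 1.56-fold lower in E3 (−0.64 ± 0.10, SD, n = 2, limma adjusted p = 1.1e-05) and 1.39-fold higher in E4 (limma, adjusted p = 0.000183). The 2 experiments did not overlap for HIS7, whose difference was 1.11 (95% interval 0.92 to 1.31, limma adjusted p = 6.57e-06).

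HIS4 (YCL030C), a single protein with several activities of the pathway and a classic Gcn4 target, read −0.28 and 0.33 in E3 and 0.61 and 0.53 in E4. It was 1.49-fold higher in E4 (0.57 ± 0.06, SD, n = 2, limma adjusted p = 0.00182). In E3 its arrays had opposite signs and lay 0.61 apart, the largest gap of any of the 44 genes, and either array taken alone, with its spread assumed to be that of the other arrays, gave a call of its own sign, −0.28 (limma, adjusted p = 0.0188) or 0.33 (limma, adjusted p = 0.00915). Its difference of 0.55 between experiments (limma, adjusted p = 0.0151) was 0.24 without array 1 of E3. It was not called with the deposited values (0.35, limma adjusted p = 0.106) or without background correction (0.36, limma adjusted p = 0.0594). The call was also lost with plain subtraction (0.90, limma adjusted p = 0.116) and with variances moderated along an intensity trend (limma, adjusted p = 0.0757).

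HIS3 (YOR202W), a mutant allele here, read −0.56 and −0.34 in E3 (limma, adjusted p = 0.00799) and −0.31 and 0.32 in E4, the largest gap between E4 arrays among the 41 genes. The E4 arrays cancelled to a mean of 0.00, and each alone gave a call of its own sign (limma, adjusted p = 0.0175 and 0.0163). The E3 call was lost without array 1 of E3 (limma, adjusted p = 0.0968). HIS2 (YFR025C), histidinolphosphatase, read −0.14 and −0.11 in E3 and 0.26 and 0.32 in E4, and only the latter was called (limma, adjusted p = 0.00277). HIS5 (YIL116W), the aminotransferase, read −0.52 and −0.11 in E3 (limma, adjusted p = 0.00928) and −0.20 and −0.18 in E4, with no call in E4.

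Lysine synthesis in yeast runs through alpha-aminoadipate and starts with homocitrate synthase, which LYS20 and LYS21 both encode. This entry step fell in E3, where 4 of the 7 lysine genes fell and 1 rose (29.4% of all genes each way). LYS20 (YDL182W) read −0.91 and −0.93, a 1.89-fold fall (−0.92 ± 0.01, SD, n = 2, limma adjusted p = 6.15e-07), and LYS21 (YDL131W) read −0.72 and −0.87, a 1.73-fold fall (−0.79 ± 0.11, SD, n = 2, limma adjusted p = 3.31e-06). In E4 they read −0.16 and −0.11, and −0.06 and 0.05, and neither was called (limma, adjusted p = 0.0799 and 0.955). The paralogs thus gave closely similar values in both experiments, with differences between experiments of 0.78 and 0.79. Whether their probes cross-react was not tested.

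In E4, 2 later genes of the lysine pathway were called, in opposite directions. Of the 5 lysine genes tested there, 1 thus rose and 1 fell (20% each), no more than the 25.9% and 25% of all genes. LYS12 (YIL094C), homoisocitrate dehydrogenase, read −0.44 and −0.33 in E3 and 0.56 and 0.53 in E4, 1.46-fold higher (0.54 ± 0.02, SD, n = 2, limma adjusted p = 6.49e-05). LYS1 (YIR034C), saccharopine dehydrogenase, which catalyses the last step, read −0.20 and −0.35 in E3 and −0.64 and −0.60 in E4. It was 1.54-fold lower in E4 (−0.62 ± 0.02, SD, n = 2, limma adjusted p = 2.88e-05), the lowest E4 value of the 41 genes. The log2 ratio of LYS1 was thus lower in E4 than in E3 by 0.34 (limma, adjusted p = 0.00948), a call lost without array 1 of E3 (difference −0.27). The E3 call of LYS1 was lost without array 2 of E3 (−0.20). LYS9 (YNR050C), which forms saccharopine, read 0.05 and −0.33 in E3 and 0.00 and 0.02 in E4 and was called in neither. LYS5 (YGL154C), which activates the LYS2 enzyme by adding its phosphopantetheine group, read 0.35 and 0.44 in E3 (limma, adjusted p = 0.000562) and 0.23 on its only E4 array. LYS2 (YBR115C), the alpha-aminoadipate reductase, read 0.03 and 0.14 in E3 and 0.30 on array 2 of E4. Its spots were close to background, with 62.6 over a background of 50.3 in Cy3 of array 1 of E3.

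The shikimate pathway, which supplies all 3 aromatic amino acids, held the only one of these genes that rose past the study's rule in both experiments. ARO1 (YDR127W), the pentafunctional enzyme that carries out the middle steps, read 0.66 and 0.80 in E3 and 0.69 and 0.73 in E4. It was 1.66-fold higher in E3 (0.73 ± 0.10, SD, n = 2, limma adjusted p = 4.56e-06) and 1.64-fold higher in E4 (0.71 ± 0.03, SD, n = 2, limma adjusted p = 1.09e-05). The difference was −0.02 with a 95% interval of −0.22 to 0.18. ARO2 (YGL148W), chorismate synthase, the next enzyme of the same pathway, moved the other way: it read −0.92 and −0.73 in E3, 1.77-fold lower (−0.83 ± 0.13, SD, n = 2, limma adjusted p = 2.68e-06), and −0.19 and −0.26 in E4. The E4 call of ARO2 (adjusted p = 0.017, limma) was lost without either E4 array, at adjusted p = 0.0514 without array 1 and 0.151 without array 2.

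The entry of the pathway, DAHP synthase, is encoded by ARO3 (YDR035W) and ARO4, whose products are inhibited by phenylalanine and tyrosine, respectively. ARO4 (YBR249C) read −0.51 and −0.23 in E3 (limma, adjusted p = 0.00137) and −0.04 and −0.05 in E4 (limma, adjusted p = 0.62). ARO4 lies next to HIS7 in the genome, and HIS7 rose in E4 while ARO4 was not called there. ARO3 had 1 spot on 1 array, where it read −0.03 with Cy5 not well above background, so its level relative to ARO4 is unknown here.

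ARO7 (YPR060C), chorismate mutase, which commits chorismate to phenylalanine and tyrosine, was lower in both experiments. It read −0.86 and −0.70 in E3, 1.72-fold lower (−0.78 ± 0.11, SD, n = 2, limma adjusted p = 3.4e-06), and −0.58 and −0.50 in E4, 1.45-fold lower (−0.54 ± 0.05, SD, n = 2, limma adjusted p = 9.4e-05). The difference of 0.24 had an adjusted p of 0.0502 from limma, just short of the threshold. It was called with print-tip loess (0.36, limma adjusted p = 0.00979) and with median centring (0.28, limma adjusted p = 0.0294). Plain subtraction of the background also gave a call (0.63, limma adjusted p = 0.0152), so the lack of a call depended on the processing. PHA2 (YNL316C), prephenate dehydratase, on the phenylalanine branch, read −0.35 and −0.54 in E3 (limma, adjusted p = 0.000218) and −0.14 and −0.19 in E4 (not called). TYR1 (YBR166C), prephenate dehydrogenase, on the tyrosine branch, read −0.09 and −0.21 in E3 (not called) and 0.31 and 0.22 in E4 (limma, adjusted p = 0.00596).

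The aromatic aminotransferases I and II, encoded by ARO8 and ARO9, changed in opposite directions in both experiments. ARO9 (YHR137W), which is also used to break aromatic amino acids down, read −0.52 and −0.63 in E3 and 0.76 and 0.61 in E4. It was 1.49-fold lower in E3 (−0.57 ± 0.08, SD, n = 2, limma adjusted p = 3.38e-05) and 1.61-fold higher in E4 (0.68 ± 0.10, SD, n = 2, limma adjusted p = 1.86e-05), and its difference of 1.26 (95% interval 1.05 to 1.46, limma adjusted p = 4.36e-06) was the largest of the 41 genes. ARO8 (YGL202W) read 0.15 and 0.51 in E3 (limma, adjusted p = 0.00506) and −0.37 on both arrays of E4 (limma, adjusted p = 0.00348), a difference of −0.70. Its rise in E3 was lost without array 2 of E3 (limma, adjusted p = 0.162).

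Within the tryptophan branch the genes did not share a direction. TRP4 (YDR354W), anthranilate phosphoribosyltransferase, read −0.90 and −0.65 in E3, 1.71-fold lower (−0.78 ± 0.17, SD, n = 2, limma adjusted p = 6.04e-06), and −0.19 and −0.16 in E4 (limma, adjusted p = 0.0602). TRP5 (YGL026C), tryptophan synthase, read 0.02 and 0.36 in E3 (limma, adjusted p = 0.0729) and 0.72 and 0.55 in E4, 1.55-fold higher (0.63 ± 0.12, SD, n = 2, limma adjusted p = 0.000156). TRP5 is the last enzyme of the branch, and its difference between experiments of 0.45 (adjusted p = 0.00992) was lost without array 1 of E3 (adjusted p = 0.0708, limma). TRP3 (YKL211C), which provides 2 activities of the branch in 1 protein, read −0.52 and −0.39 in E3 and 0.24 and 0.23 in E4, called in opposite directions (limma, adjusted p = 0.000125 and 0.0112). TRP2 (YER090W), anthranilate synthase, read −0.18 and 0.04 in E3 and −0.22 and −0.12 in E4, and TRP1 (YDR007W), the mutant allele, read 0.08 on both arrays of E3 and −0.03 on both arrays of E4. TRP2 and TRP1 were called in neither experiment.

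Serine synthesis from glycolytic 3-phosphoglycerate begins with phosphoglycerate dehydrogenase, for which yeast has SER3 and SER33, of which SER33 was called in E3 and SER3 in E4. The difference between the paralogs themselves was not tested. SER33 (YIL074C) read −1.01 and −1.02 in E3 and 0.15 and 0.10 in E4. It was 2.02-fold lower in E3 (−1.02 ± 0.01, SD, n = 2, limma adjusted p = 3.01e-07), the lowest E3 value of the 44 genes, and not called in E4 (limma, adjusted p = 0.106). SER3 (YER081W) read −0.23 and 0.01 in E3, not called (limma, adjusted p = 0.235), and 0.87 and 0.71 in E4, 1.73-fold higher (0.79 ± 0.11, SD, n = 2, limma adjusted p = 1.48e-05). The log2 ratio of each paralog was therefore higher in E4 than in E3, by 1.14 for SER33 (limma, adjusted p = 4.38e-06) and by 0.90 for SER3 (limma, adjusted p = 6.55e-05). The fall of SER33 was visible before any correction, since on array 2 of E3 its mean was 470 in Cy3 and 237 in Cy5, over backgrounds of 48.4 and 59.1.

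Downstream of these dehydrogenases, SER2 (YGR208W), phosphoserine phosphatase, which completes the pathway, read −0.81 and −0.54 in E3, 1.59-fold lower (−0.67 ± 0.19, SD, n = 2, limma adjusted p = 2.24e-05), and −0.15 and −0.17 in E4 (limma, adjusted p = 0.0945). SER1 (YOR184W), phosphoserine aminotransferase, moved little, at −0.15 and −0.18 in E3 (limma, adjusted p = 0.0359) and 0.17 and 0.09 in E4 (not called). The log2 ratios of all 4 serine genes were higher in E4 than in E3 by the contrast, with differences between 0.30 and 1.14. Of all 4992 genes, 26.8% were called higher in this contrast. In E3, 3 of the 4 serine genes fell and none rose, where 29.4% of all genes went each way. In E4, 1 rose and none fell, against 25.9% and 25% of all genes.

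Among the 3 threonine and isoleucine genes THR1 alone was called, higher in E3 and lower in E4. This was near the share of all genes, of which 29.4% rose in E3 and 25% fell in E4. THR1 (YHR025W), homoserine kinase, read 0.42 and 0.61 in E3, 1.43-fold higher (0.52 ± 0.13, SD, n = 2, limma adjusted p = 8.36e-05), and −0.39 and −0.30 in E4, 1.27-fold lower (−0.34 ± 0.06, SD, n = 2, limma adjusted p = 0.00201). Its difference of −0.86 (95% interval −1.07 to −0.65, limma adjusted p = 4.99e-05) was the lowest of the 41 genes. THR4 (YCR053W), threonine synthase, and ILV1 (YER086W), threonine deaminase, which opens isoleucine synthesis, were not called in either experiment, with all array values between −0.31 and 0.15. Of the 3 proline genes, 2 fell in E3 and 1 rose in E4, where 29.4% and 25.9% of all genes did. PRO1 (YDR300C), glutamate 5-kinase, was called in neither experiment. PRO2 (YOR323C), which acts next, read −0.45 and −0.11 in E3 (limma, adjusted p = 0.0112) and was not called in E4. PRO3 (YER023W), which closes the pathway, read −0.35 and −0.22 in E3 (limma, adjusted p = 0.00359) and 0.29 and 0.15 in E4 (limma, adjusted p = 0.0189).

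GCN4 (YEL009C) mRNA was the highest of the 41 genes in E4. It read 0.28 and 0.01 in E3 (0.14 ± 0.19, SD, n = 2, limma adjusted p = 0.141) and 1.11 and 0.94 in E4, 2.04-fold higher (1.03 ± 0.12, SD, n = 2, limma adjusted p = 2.87e-06). The experiments did not overlap, and the difference was 0.88 (95% interval 0.64 to 1.13, limma adjusted p = 9.63e-05). GCN4 was also a bright gene, at 1027 in Cy3 and 2233 in Cy5 on array 1 of E4 over backgrounds of 88.7 and 88.2. In E3, centring the arrays on their median in place of loess gave a mean of 0.21 (limma, adjusted p = 0.0154), so the lack of a call there depended on the normalization.

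Of 12 other regulators of these pathways, 5 rose and 1 fell in E3 (29.4% of all genes each way), and 4 rose and 3 fell in E4, near the 25.9% and 25% of all genes. Their medians were 0.10 and 0.041. PHO2, among the 3 that fell in E4, had Cy5 not well above background on either array there. ARG80, a DNA-binding component of the ArgR complex, read 0.11 and 0.36 in E3 and 0.84 and 0.81 in E4, and alone of the 12 passed 1.4-fold on both arrays of an experiment (E4 mean 0.83, limma adjusted p = 8.06e-06). LYS14, the activator of lysine genes, fell in E3 (−0.39, limma adjusted p = 0.000378) and rose in E4 (0.34, limma adjusted p = 0.00134). GCN1 and GCN20, which act with Gcn2, rose in E4, with means of 0.45 and 0.22 (limma, adjusted p = 0.000219 and 0.0141), and GCN2 itself was not called there (0.04, limma adjusted p = 0.691), where its Cy5 signal was not well above background.

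Of 7 further enzymes of the same pathways, 5 fell and 1 rose in E3 (29.4% of all genes each way), with a median of −0.25, and 1 rose and 1 fell of 6 in E4, where 25.9% and 25% of all genes did. Among the 5 falls in E3 was LYS4, which had 1 spot per array and Cy5 not well above background on either. HOM3, aspartate kinase, which opens the route to threonine and methionine, read −1.20 and −1.24 in E3 (−1.22, limma adjusted p = 1.29e-07), below every one of the 44 members tested, and 0.03 and −0.10 in E4. HOM2, the next enzyme of that route, fell in E3 (−0.72 and −0.44, limma adjusted p = 9.7e-05). HOM6, which makes homoserine, the substrate of THR1, rose with THR1 in E3 (0.52 and 0.32, limma adjusted p = 0.000353) and also rose in E4 (0.26 and 0.24, limma adjusted p = 0.0109), where THR1 fell.

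The agreement between arrays differed by experiment. For the members the median gap between the arrays of a gene was 0.197 in E3, against 0.0976 for all genes, and 0.0618 in E4, against 0.0878. In E3 array 1 of the members centred at −0.33 and array 2 at −0.22. Spots of a gene on the same array differed by a median of 0.0611 to 0.0927 for the members. The labels of both experiments held: ZAP1 mRNA was at a log2 ratio of 6.65 in E3, and ZRT1, the high-affinity zinc transporter that Zap1 activates, was at 5.36 in E3 and 6.64 in E4 (limma, adjusted p = 2.24e-12, 2.11e-11 and 3.28e-12).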

How the data were processed

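Polyadenylated RNA of 4 pairs of yeast cultures was measured on spotted 2-colour arrays, 2 for E3 and 2 for E4. The deposited scanner tables give, per spot and channel, a mean intensity and a local background intensity, with no subtraction or normalization, for unflagged spots (10036 to 11303 per array). The deposited value table holds log2 ratios per spot, normalized slide by slide with LOWESS by the authors. Scanner settings are not given in the sources used here. Precision is limited by 2 arrays per experiment.

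Background was removed by normexp (offset 50), loess (span 0.3) was fitted within each array, and spots of a gene were averaged with limma 3.58.1 in R 4.3.3. The linear model had 1 coefficient for each experiment over all 4 arrays, with moderated variances and Benjamini-Hochberg adjustment over all genes tested, two-sided at 0.05, and E4 minus E3 was a contrast. A spot was well above background where it exceeded it by more than 2.6 SD of the channel's backgrounds. Each member past this threshold, with both arrays at 1.4-fold or more in its direction, was named with every array value, as were GCN4, HIS3, TRP1 and 4 pairs of paralogs. Others are given more briefly. 1 member is included in the counts and medians but is not reported here on its own. The members and lists were chosen with earlier results of these data known. Alternatives are given below. Promoter and protein sequences were not analysed here.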

Additional observations from a re-analysis of the deposited data

How the results depend on the processing

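With 2 arrays per experiment, calls of single genes depend on each array. Of 988 values of single genes under the alternatives, 921 kept their call or their lack of one, 42 lost a call and 23 gained one. The other 2 gained a call of the opposite sign to the mean of both arrays. They were HIS3 in E4 without E4 array 2 (−0.31, and 0.32 without array 1) and HIS4 in E3 without E3 array 2 (−0.28, and 0.33 without array 1). Values called in neither fit were counted as kept whatever their sign. HIS1 in E4, for example, was at −0.07 with all arrays and 0.05 without E4 array 1. Plain subtraction of the background accounts for 16 of the lost calls, namely the E4 falls of ARG1, ARG3, ARO2 and ARO8, the E3 rise of ARO8, the E3 falls of ARG4, CPA1, HIS3 and LYS1, and the differences between experiments of ARG1, ARG3, ARO4, HIS3, HIS4, LYS1 and TRP5. The cause was not tested. The share of all genes called moved with the setting too, also where an array was left out. In E4, 980 of 5104 genes fell with plain subtraction and 1377 of 5129 with the arrays of E4 alone, against 1280 of 5129 in the report. Rises in E4 were 1074 of 5104 with plain subtraction, against 1328 of 5129. In E3, 1677 of 5780 genes rose with median centring, against 1699 of 5780. The falls in E3 stayed between 19 and 27 without each array in turn (26 with all), and the rises between 4 and 6, but 7 rose with median centring in place of loess (4 in the report). The rises in E4 (16) were 14 to 16 without each array in turn, 13 with plain subtraction and 17 with print-tip loess or median centring. The falls in E4 (7) were 3 with plain subtraction, 12 with the arrays of E4 alone, and 4 to 12 without an array: 4 without E4 array 1 and 12 without either E3 array, with the spread then estimated from fewer arrays. Without each array in turn, the contrast gave 25 to 30 higher and 3 lower, and with plain subtraction 21 and 2. The median in E4 was −0.019 with plain subtraction, −0.047 with the deposited values, −0.0024 without E4 array 2 and 0.095 without E4 array 1.

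By the study's rule, rises in E3 (1) were 2 with plain subtraction, 1 to 2 without an array, and 0 at 2-fold. Falls in E3 (11) were 10 to 12 without an array and 1 at 2-fold. Rises in E4 (8) were 4 without background correction, 4 with the deposited values, 6 to 9 without an array and 1 at 2-fold. The 1 fall in E4 stayed at 1 without each array in turn, was 2 with plain subtraction, and was 0 with print-tip loess, median centring or 2-fold. Replicates share only a number here (correlation of deviations −0.0738, over genes). With the replicate number as a block, 26 of 41 genes fell and 3 rose in E3, where 1619 and 1365 of all 4992 genes did. In E4, 16 rose and 8 fell with the block, where 1295 and 1233 of all 4992 genes did. The contrast called 29 higher and 3 lower with the block. Counts of all genes for the contrast and for the study's rule under the alternatives are not given here.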

Other observations

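Of 9 genes that break these amino acids down, 2 rose and 4 fell in E3 (limma, adjusted p under 0.05), where 29.4% of all genes went each way, and 3 rose and 3 fell in E4, where 25.9% rose and 25% fell. CAR2, ornithine transaminase, which acts after arginase, read 1.46 and 1.75 in E3 (limma, adjusted p = 5.7e-08) and 0.38 and 0.35 in E4. CAR1, arginase itself, fell in both, at −0.51 and −0.45 in E3 and −0.84 and −1.27 in E4 (limma, adjusted p = 6.69e-06), so CAR1 and CAR2 had opposite signs in both experiments. CAR1 was below 0 in E4, as were 2 of the 6 arginine synthesis genes tested, ARG1 and ARG3, while the other 4 were above 0.

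ARO10, a decarboxylase in the breakdown of aromatic amino acids, had a mean log2 ratio of −1.41 in E3 (limma, adjusted p = 5.11e-08) and read −0.60 and −0.74 in E4 (limma, adjusted p = 1.7e-05). ARO9, which acts before it, fell in E3 and rose in E4. PUT1, proline oxidase, was not called in E3 and was at least 1.72-fold higher in E4 (limma, adjusted p = 3.49e-06), where its Cy3 signal was not well above background. SHM2, the cytosolic serine hydroxymethyltransferase, rose in E3 (0.60 and 0.90, limma adjusted p = 1.67e-05), and GLY1, threonine aldolase, fell there (−1.02 and −0.55, limma adjusted p = 0.000205).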
